A study of Mus musculus with 6 samples.

Results

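The genes described here encode matrix metalloproteinases (Mmp), the membrane-bound ADAM proteases (Adam), the secreted ADAMTS proteases (Adamts) and the tissue inhibitors of metalloproteinases (Timp). They were taken as all gene entries of the deposited table whose symbol starts with Mmp, Timp, Adam or Adamts and a number, with at least 10 reads over the 6 libraries. Of 24489 gene entries, 79 matched by name and 53 had enough reads: 15 Mmp, 4 Timp, 17 Adam and 17 Adamts genes. A further 15 entries had no read and 11 had 1 to 9 reads. Just under the minimum lay Adam7 with 8 reads and Mmp24 with 7, and just over it Adamts8 and Adamts20 with 11 each and Adam2 with 13.

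Livers came from mouse pups at postnatal day 10 of the C3H/C57bl6J background, none of them treated, that were homozygous for the Nodder allele of Jag1 (Jag1Ndr/Ndr) or carried the wild-type gene (Jag1+/+). JAG1 is a Notch ligand, Ndr is a germline missense allele and so present in every cell type, and homozygotes model Alagille syndrome, a human disorder with too few bile ducts. Polyadenylated RNA of a liver lobe was sequenced in 3 libraries per genotype. The labels do not say that each library is a separate animal, so the p-values measure the spread between these libraries, part of which may be technical.

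Metalloproteinases use a zinc ion to cut proteins. MMPs break down collagen, elastin and other matrix proteins and release growth factors bound to matrix. Most ADAMs sit in the cell membrane and shed the outer parts of other membrane proteins, including Notch receptors and their ligands. ADAMTS proteases are secreted and process procollagens, proteoglycans and von Willebrand factor. TIMPs bind the active site of these enzymes, TIMP3 most broadly. In injured liver, TIMP1 is made by stellate cells, macrophages and hepatocytes and is a widely used marker of fibrosis.

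Depth ranged from 12992592 reads (Jag1Ndr/Ndr replicate 1) to 59653111 reads (Jag1Ndr/Ndr replicate 2). A count of 0 therefore allows up to 0.266 CPM (read counts scaled to library size by TMM factors) in the shallowest library and 0.0421 CPM in the deepest, for counting error only (3 reads). Xist was high in 1 Jag1+/+ library (replicate 1) and in 2 Jag1Ndr/Ndr libraries (replicates 2 and 3), and had at most 29 reads elsewhere, so sex was not balanced between genotypes. On the second principal component (22.1% of the variance) the Jag1Ndr/Ndr libraries spread from -43.6 for replicate 2 to 46.7 for replicate 1, with the Jag1+/+ libraries between 2.14 and 7.35. Hepatocyte markers summed to 221644 to 229116 CPM in Jag1+/+ libraries and to 107583 to 188885 CPM in Jag1Ndr/Ndr libraries, so liver tissue was as labelled. Values below are given in the order of replicates 1, 2 and 3, and an adjusted p without a replicate is that of the fit with this library alone left out.

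In Jag1Ndr/Ndr livers the inhibitor Timp1 rose 19.2-fold in mean CPM, the macrophage elastase Mmp12 rose 6.96-fold and the membrane-type protease Mmp15 rose 3.02-fold. Adam8, Adam23 and Adamts15 rose less, by 1.65- to 2.57-fold, and Adamts7 and Adamts13 were 1.64- and 1.78-fold lower. Mmp14, the member with the highest level, did not pass the test, and neither did the sheddases Adam10, Adam17 and Adam9 or the inhibitors Timp2 and Timp3. Of the 53 members 42 had enough reads for the test (edgeR's quasi-likelihood test, adjusted p under 0.05 over all 13819 genes tested), and 6 of them, 14.3%, were higher and 2, 4.76%, lower. Over all genes tested 4.73% were higher and 2.90% lower. The other 34 had no call, and 20 of the 42 had an unadjusted p under 0.05, beside 22.5% of all genes tested. The median log2 fold change was 0.28 over the 42 members and 0.00 over all genes tested, with 27 members positive and 14 negative. The CPM of the genotypes did not overlap for 17 members, beside 29.0% of all genes tested. One of the 42, Mmp12, passed the filter on low counts through its Jag1Ndr/Ndr libraries alone, so its presence among the tested genes depended on its being higher there. Timp1 and Mmp27 had 2 Jag1+/+ and 3 Jag1Ndr/Ndr libraries over the filter, so they too needed their Jag1Ndr/Ndr libraries to pass. Adam1a, Adam22, Adam33 and Adamts17 had 3 Jag1+/+ libraries over it and fewer Jag1Ndr/Ndr libraries. With sex as a covariate, and likewise with limma on the deposited RPKM, Timp1, Mmp12 and Mmp15 stayed past the threshold and the other 5 calls were lost.

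Single libraries moved these counts, and the counts over all genes with them. Without Jag1+/+ replicate 1 there were 2 members higher and 0 lower (1.45% and 0.937% of all genes tested), and without Jag1+/+ replicate 2 also 2 and 0 (1.13% and 0.927%). Leaving out Jag1+/+ replicate 3 gave 3 higher and 1 lower (Adamts16; 1.32% and 1.01%). When Jag1Ndr/Ndr replicate 1 was left out, 8 were higher and 4 lower, Adamts16 among the 4 (4.75% and 3.72%). Leaving out Jag1Ndr/Ndr replicate 2 gave 4 and 2 (4.64% and 2.97%). Leaving out Jag1Ndr/Ndr replicate 3 gave 5 and 1, again Adamts16 (3.91% and 2.34%). Adamts16 reached these fits through its Jag1+/+ libraries alone, so its calls are no support for a fall. Timp1 and Mmp12 stayed past the threshold in each of these 6 fits. The fits share libraries, and Mmp12 had entered the main fit through its Jag1Ndr/Ndr libraries alone, so this is not separate support.

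**Figure D1:**
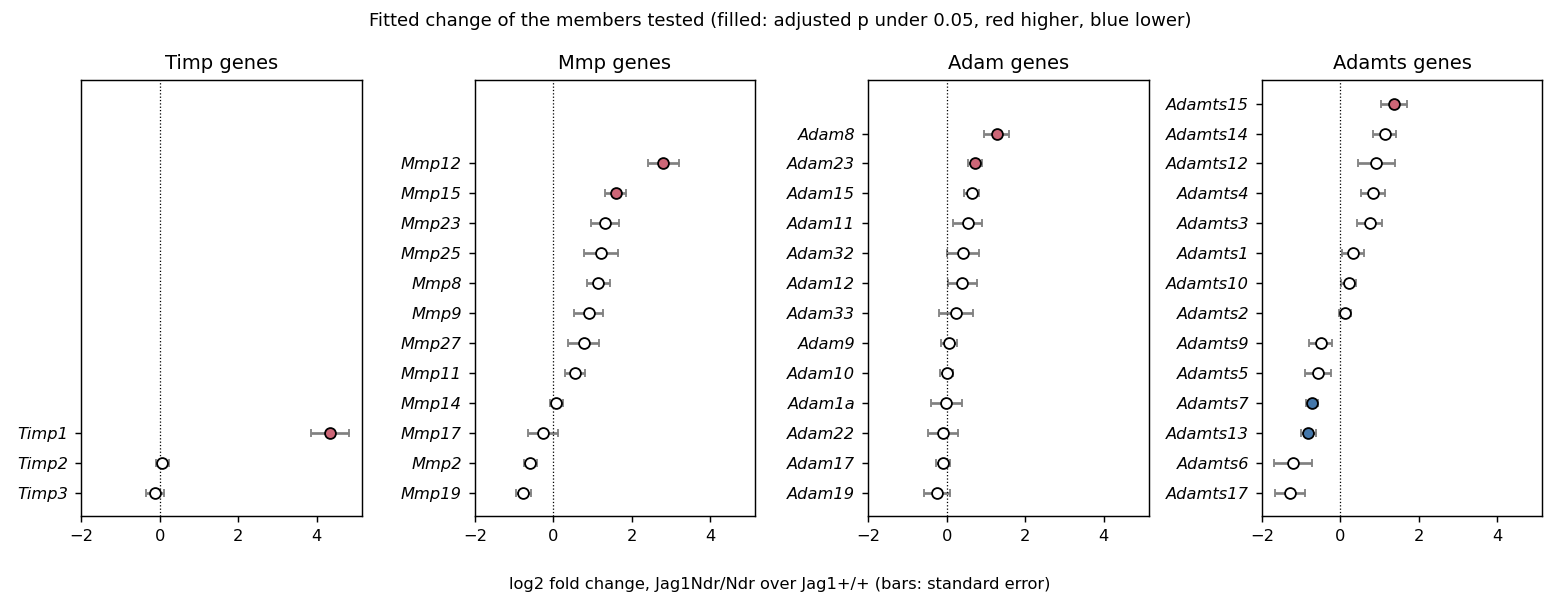
Fitted log2 fold change (Jag1Ndr/Ndr over Jag1+/+, x axis) of the 42 tested members, one row per gene, in 4 panels by family, with standard errors as bars. Filled points passed the threshold, red for the 6 higher and blue for the 2 lower; Timp1, at 4.35, lies farthest from 0, and Mmp genes run from Mmp12 at 2.81 to Mmp19 at -0.76.

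Timp1, Mmp12 and Mmp15 had the largest rises among the members tested, and the bases before their start sites are shown for that reason. RefSeq promoters (GRCm38.p6) were matched for 31 of the 53 members, and the 250 bases before the start were searched on both strands for the AP-1 motif TGANTCA, the AP-1 variant TGAGTAA and the GC box GGGCGG. Capitals mark a match; a GC box on the reverse strand reads CCGCCC. Mmp12 has RefSeq starts at 2 places, and both windows are given.
Timp1, chrX:20869916-20870165, plus strand: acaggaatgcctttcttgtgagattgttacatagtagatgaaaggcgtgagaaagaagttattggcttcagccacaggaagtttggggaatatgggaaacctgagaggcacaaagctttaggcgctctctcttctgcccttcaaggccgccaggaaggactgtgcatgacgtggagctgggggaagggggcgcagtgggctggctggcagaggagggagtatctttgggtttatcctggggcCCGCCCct
Mmp15, chr8:95352046-95352295, plus strand: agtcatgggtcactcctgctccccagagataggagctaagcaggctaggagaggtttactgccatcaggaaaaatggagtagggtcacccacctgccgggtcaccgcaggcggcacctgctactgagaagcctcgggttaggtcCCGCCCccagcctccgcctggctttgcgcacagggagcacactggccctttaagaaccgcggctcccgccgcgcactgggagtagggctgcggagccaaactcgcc
Mmp12, first start, chr9:7344147-7344396, plus strand: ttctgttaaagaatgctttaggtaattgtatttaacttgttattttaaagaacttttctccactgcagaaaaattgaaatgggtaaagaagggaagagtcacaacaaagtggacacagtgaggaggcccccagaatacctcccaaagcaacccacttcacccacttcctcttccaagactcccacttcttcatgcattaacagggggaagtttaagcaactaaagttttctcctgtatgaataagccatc
Mmp12, second start, chr9:7347124-7347373, plus strand: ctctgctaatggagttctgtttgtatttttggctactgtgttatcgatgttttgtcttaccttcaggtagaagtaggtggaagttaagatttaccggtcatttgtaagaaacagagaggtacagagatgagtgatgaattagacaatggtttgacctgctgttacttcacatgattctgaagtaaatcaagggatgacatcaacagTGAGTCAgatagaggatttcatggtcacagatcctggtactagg
The Timp1 window held a GC box 8 bases before the start and the Mmp15 window held one 106 bases before it. The second Mmp12 window held TGAGTCA, an AP-1 match, 44 bases before the start, and the first Mmp12 window held none of these letters. TGANTCA was found in 6.75% of 32851 promoters and in 3 of the 31 matched members (Mmp12, Mmp13 and Adam19), and TGAGTAA in 2.25% of promoters and in 0 matched members. GGGCGG was found in 32.7% of promoters and in 18 of the 31 (58.1%), among them the higher genes Timp1, Mmp15 and Adam8. Of the members past the threshold 6 had a matched promoter, and 3 of these held it. The higher genes Mmp12 and Adam23 and the lower gene Adamts13 lacked it, and Adamts15 and Adamts7 had no matched promoter. The percentages count promoters, whereas a member with several windows (Adam19, Mmp12 and Mmp23) counts once if any window matched, so the units differ. A match in letters does not show that a factor binds there.

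Timp1 lies on chromosome X (20870166 to 20874737, within Syn1). Its level was 1.27, 0.584 and 0.413 CPM in Jag1+/+ libraries and 20.8, 13.7 and 9.01 CPM in Jag1Ndr/Ndr libraries. Every Jag1Ndr/Ndr library lay above every Jag1+/+ library by several-fold. The mean went from 0.757 ± 0.456 to 14.5 ± 5.95 CPM (SD, n = 3), a log2 fold change of 4.35 ± 0.48 (SE; adjusted p = 0.00314). In bulk RNA a change in the number of cells that express a gene cannot be told apart from a change in its RNA per cell. Summed macrophage markers were 942, 857 and 560.0 CPM in the Jag1+/+ libraries and 2034, 1328 and 1193 CPM in the Jag1Ndr/Ndr libraries. Of 10 genes 4 were higher, beside 4.73% of all genes tested, and none was at 0. Summed stellate cell and fibroblast markers were 1040.2 to 1225 CPM and 835 to 1284 CPM, with 0 of 12 higher and Reln lower. The part of these cells in the Timp1 result was not tested.

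The other inhibitors did not pass the test. Timp2, which inhibits MMPs and together with MMP14 activates MMP2, measured 42.2, 34.0 and 30.1 CPM in Jag1+/+ libraries and 37.4, 35.0 and 38.8 CPM in Jag1Ndr/Ndr libraries. The genotypes overlapped, and the log2 fold change was 0.07 ± 0.16 (adjusted p = 0.864; -0.04 without Jag1+/+ replicate 3). Timp3, which binds to matrix and also inhibits ADAM17 and several ADAMTS enzymes, measured 20.3, 15.4 and 15.2 CPM in Jag1+/+ libraries and 11.1, 16.3 and 18.8 CPM in Jag1Ndr/Ndr libraries. Its libraries overlapped too (log2 fold change -0.13 ± 0.23, adjusted p = 0.790, with a positive sign when reads were scaled by library totals alone, 0.01, or taken as deposited RPKM, 0.09 and 0.08, and when replicate 1 of either genotype was left out, 0.01 and 0.04). Timp4 had 3, 11 and 0 reads in Jag1+/+ libraries and 5 in each Jag1Ndr/Ndr library, too few for the test. Timp3 and Timp4 share exon bases with Syn3 and Syn2 on the opposite strand, and the library kit does not mark strand, so reads of each pair cannot be told apart.

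Levels of different genes were compared per transcript length, as RPKM (reads scaled to transcript length and library size) rescaled to the same library factors as CPM. Summed over the 4 Timp genes the rescaled RPKM was 17.9, 14.0 and 12.3 in Jag1+/+ libraries and 38.3, 29.6 and 26.2 in Jag1Ndr/Ndr libraries. The inhibitors' summed level was thus higher in every Jag1Ndr/Ndr library. Timp1 made up 8.19%, 5.15% and 3.87% of it in Jag1+/+ libraries and 64.9%, 54.5% and 40.8% in Jag1Ndr/Ndr libraries. Timp2 held the largest share in each Jag1+/+ library (66.4% to 69.1%) and 27.8% to 42.5% in Jag1Ndr/Ndr libraries. In Jag1Ndr/Ndr replicate 3 Timp2, at 42.5%, still held slightly more than Timp1. The 15 Mmp genes summed to 105 ± 5.70 RPKM in Jag1+/+ and 120.1 ± 15.1 RPKM in Jag1Ndr/Ndr livers (SD, n = 3). The lowest Jag1Ndr/Ndr library, at 103, lay inside the Jag1+/+ range of 99.9 to 111.

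**Figure D2:**
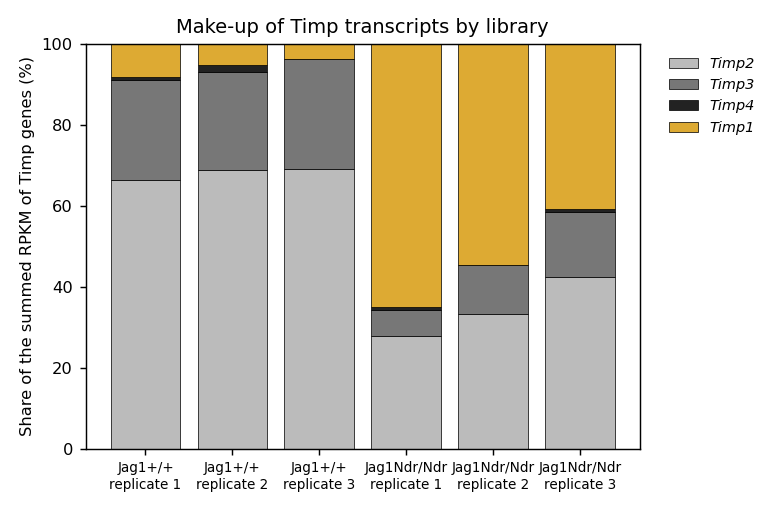
Share of the summed rescaled RPKM of the Timp genes (y axis, percent) held by each Timp gene, one stacked bar per library. Timp1 holds 3.87% to 8.19% in the Jag1+/+ libraries and 40.8% to 64.9% in the Jag1Ndr/Ndr libraries, while Timp2 is the largest part of each Jag1+/+ bar.

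Among the MMPs, 2 of 12 tested genes rose and 0 fell (4.73% and 2.90% of all genes tested), with a median log2 fold change of 0.84. Mmp12, the macrophage elastase (chromosome 9, 7344397 to 7360461), was low throughout, at 0.347, 0.162 and 0.362 CPM in Jag1+/+ libraries and 1.60, 2.02 and 2.45 CPM in Jag1Ndr/Ndr libraries. The ranges did not overlap, on 5 to 14 reads per Jag1+/+ library and 18 to 144 reads per Jag1Ndr/Ndr library. The log2 fold change was 2.81 ± 0.40 (adjusted p = 0.00764). Mmp12 passed the filter on low counts through its Jag1Ndr/Ndr libraries alone. Its place among the 2 of 12 and its adjusted p are therefore no separate support for a rise. Its exons overlap Mmp1b on the opposite strand in the GENCODE annotation, and the Mmp1b entry held 3 reads in all. Macrophage markers that rose were Gpnmb, from 0.558 to 4.14 CPM, Ccr2, from 3.46 to 14.6 CPM, Cd68, from 33.3 to 61.5 CPM, and Lyz2, from 88.1 to 244 CPM. The rest of that list had no call. Among them were the Kupffer cell gene Clec4f, with means of 187 and 243 CPM (adjusted p = 0.386), and Marco, with 155 and 558 CPM (adjusted p = 0.0579). The part of these cells in the Mmp12 result was not tested.

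Mmp15, also called MT2-MMP, is anchored in the cell membrane (chromosome 8, 95352296 to 95374293). It measured 27.6, 30.3 and 33.6 CPM in Jag1+/+ libraries and 91.9, 60.1 and 124 CPM in Jag1Ndr/Ndr libraries. Each Jag1Ndr/Ndr library was well above the Jag1+/+ libraries, which lay close together. The mean went from 30.5 ± 3.02 to 92.0 ± 32.0 CPM (SD, n = 3), with a log2 fold change of 1.59 ± 0.26 (adjusted p = 0.0108). Without Jag1+/+ replicate 1 or 2 the adjusted p was 0.0593 and 0.0547. Per transcript length its mean level went from 7.31 to 22.2 RPKM. In Jag1Ndr/Ndr livers its level was above that of Timp1 in replicate 3 (30.1 against 10.7 RPKM) and below it in replicates 1 and 2 (22.2 against 24.8 and 14.3 against 16.1 RPKM).

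The 3 Mmp genes with the highest level over all libraries were Mmp14, Mmp19 and Mmp15. Mmp14 (MT1-MMP), a collagenase of the cell surface that activates MMP2, measured 105, 126 and 99.6 CPM in Jag1+/+ libraries and 107, 124 and 119 CPM in Jag1Ndr/Ndr libraries. Its genotypes overlapped fully (log2 fold change 0.08 ± 0.16, adjusted p = 0.818), and at 44.9 RPKM over all libraries it led all 53 members. Mmp19, a secreted protease, measured 65.3, 76.0 and 80.5 CPM in Jag1+/+ libraries and 32.5, 50.1 and 48.1 CPM in Jag1Ndr/Ndr libraries. The genotypes did not overlap, but the adjusted p just missed the threshold, at 0.0513 (log2 fold change -0.76 ± 0.19). Mmp19 was called lower in 6 of 15 alternative fits of the same libraries. Its exons overlap Tmem198b and Gm47093 on the opposite strand. Gelatinase A, Mmp2, named after its values were seen because it also lacked overlap, measured 29.0 to 36.8 CPM and 20.9 to 24.6 CPM (log2 fold change -0.58 ± 0.16, adjusted p = 0.0592). Mmp23, a membrane-anchored MMP, measured 0.801 to 1.91 CPM and 3.04 to 3.81 CPM (log2 fold change 1.32 ± 0.35, adjusted p = 0.0582). The other tested Mmp genes, Mmp11, Mmp17 and Mmp27, aside from those of leukocytes, had log2 fold changes from -0.26 to 0.78 (adjusted p of at least 0.264).

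**Figure D3:**
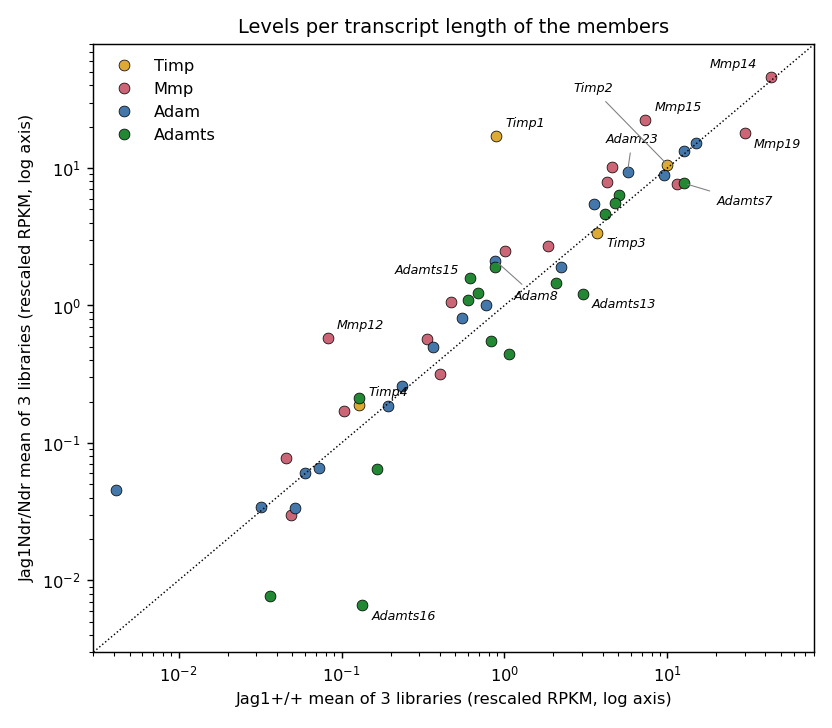
Mean rescaled RPKM of each member in Jag1Ndr/Ndr (y axis) against Jag1+/+ (x axis), both on log axes, coloured by family, with a dotted line of equal level. Timp1, Mmp12 and Mmp15 lie above the line and Adamts13 and Adamts16 below it, while Mmp14 sits on it at the top; Adamts20 had no read in Jag1+/+ libraries and is not drawn.

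Proteases stored in or displayed by leukocytes varied widely between the Jag1Ndr/Ndr libraries. Mmp8, the neutrophil collagenase, measured 10.2, 10.4 and 12.2 CPM in Jag1+/+ libraries and 13.3, 33.4 and 25.9 CPM in Jag1Ndr/Ndr libraries. Its genotypes did not overlap, with Jag1Ndr/Ndr replicate 1 only just above the Jag1+/+ range (log2 fold change 1.15 ± 0.30, adjusted p = 0.0574). Gelatinase B, Mmp9, measured 11.5, 13.6 and 14.4 CPM in Jag1+/+ libraries and 11.4, 38.4 and 22.9 CPM in Jag1Ndr/Ndr libraries. Here Jag1Ndr/Ndr replicate 1 lay just below the Jag1+/+ range (log2 fold change 0.90 ± 0.37, adjusted p = 0.201). Mmp25, known as leukolysin, measured 1.51, 1.56 and 1.58 CPM in Jag1+/+ libraries and 1.42, 5.29 and 3.68 CPM in Jag1Ndr/Ndr libraries. It showed the same order of libraries (log2 fold change 1.21 ± 0.43, adjusted p = 0.133). Without Jag1Ndr/Ndr replicate 1 the log2 fold changes were 1.43 for Mmp8, 1.22 for Mmp9 and 1.54 for Mmp25 (adjusted p = 0.00768, 0.0255 and 0.0187). Without Jag1Ndr/Ndr replicate 2 they were 0.85, 0.39 and 0.75 (adjusted p = 0.114, 0.456 and 0.311). Mmp9 and Mmp25 were named after their values were seen.

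Neutrophil markers summed to 749.5, 630.2 and 622 CPM in Jag1+/+ libraries and to 1071, 2345 and 1524 CPM in Jag1Ndr/Ndr libraries. Replicate 2 was also highest in Jag1Ndr/Ndr for this sum and replicate 1 lowest, although Elane and Csf3r were lowest in replicate 3. Of the 9 markers matched 6 were higher and 0 were lower, beside 4.73% and 2.90% of all genes tested, and none was at 0. Elane, neutrophil elastase, went from 8.66 ± 1.58 to 27.7 ± 14.5 CPM (adjusted p = 0.0249), and Mpo, myeloperoxidase, from 34.3 ± 7.71 to 118 ± 79.3 CPM (adjusted p = 0.0418; SD, n = 3). The part of neutrophils in the protease values was not tested.

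**Figure D4:**
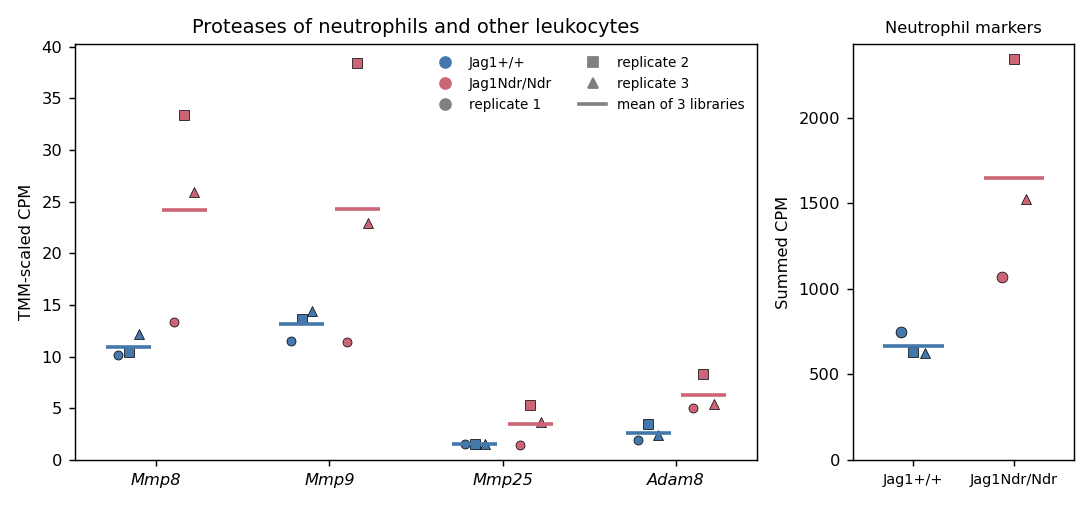
Left, TMM-scaled CPM (y axis) of Mmp8, Mmp9, Mmp25 and Adam8 in each library, with lines at the mean of 3 libraries. Right, the summed CPM of the neutrophil markers; in Jag1Ndr/Ndr replicate 2 is highest and replicate 1 lowest in every column, and for Mmp9 and Mmp25 replicate 1 lies below the Jag1+/+ values.

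Among ADAM genes, 2 of 13 tested rose and 0 fell (4.73% and 2.90% of all genes tested). Adam8, a protease of myeloid cells, measured 1.91, 3.44 and 2.45 CPM in Jag1+/+ libraries and 5.05, 8.35 and 5.39 CPM in Jag1Ndr/Ndr libraries. The genotypes did not overlap, and the log2 fold change was 1.27 ± 0.31 (adjusted p = 0.0452). Its exons overlap Gm16201 on the opposite strand, so some reads may belong to that gene. Without Jag1+/+ replicates 1, 2 and 3 the adjusted p was 0.146, 0.0767 and 0.164, and without Jag1Ndr/Ndr replicates 2 and 3 it was 0.0953 and 0.0607.

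Adam23, which lacks protease activity and serves as a receptor for LGI proteins in neurons, measured 23.3, 30.1 and 30.1 CPM in Jag1+/+ libraries and 49.1, 37.9 and 50.6 CPM in Jag1Ndr/Ndr libraries. All Jag1Ndr/Ndr libraries were above the Jag1+/+ libraries, by a log2 fold change of 0.72 ± 0.17 (adjusted p = 0.0452). Without Jag1+/+ replicates 1, 2 and 3 the adjusted p was 0.161, 0.133 and 0.136, and without Jag1Ndr/Ndr replicates 1 and 3 it was 0.0654 and 0.113. The calls of Adam8 and Adam23 are therefore close to the threshold.

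The main sheddases did not pass the test. Adam10, which cuts Notch receptors after ligand binding, measured 71.7, 65.2 and 64.8 CPM in Jag1+/+ libraries and 53.7, 80.1 and 67.7 CPM in Jag1Ndr/Ndr libraries. Its genotypes overlapped, with equal means and a log2 fold change of 0.00 ± 0.17 (adjusted p = 0.999). Adam17, which releases tumour necrosis factor and ligands of the EGF receptor, measured 40.2, 40.3 and 39.1 CPM in Jag1+/+ libraries and 29.1, 41.7 and 40.4 CPM in Jag1Ndr/Ndr libraries. Only Jag1Ndr/Ndr replicate 1 stood apart, below the rest (log2 fold change -0.10 ± 0.17, adjusted p = 0.783, with a positive sign under library totals, 0.04, and deposited RPKM, 0.13, and 0.03 without that library). Adam17 exons overlap Iah1 on the opposite strand, so some reads may belong to that gene. Adam9, which sheds several membrane proteins, measured 45.0, 46.9 and 56.9 CPM in Jag1+/+ libraries and 37.9, 53.4 and 63.6 CPM in Jag1Ndr/Ndr libraries. These overlapped (log2 fold change 0.06 ± 0.21, adjusted p = 0.906, and -0.03 with sex as a covariate, -0.01 without Jag1+/+ replicate 1 and -0.12 without Jag1Ndr/Ndr replicate 3). The remaining tested Adam genes had log2 fold changes from -0.24 (Adam19) to 0.64 (Adam15, adjusted p = 0.0778).

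**Figure D5:**
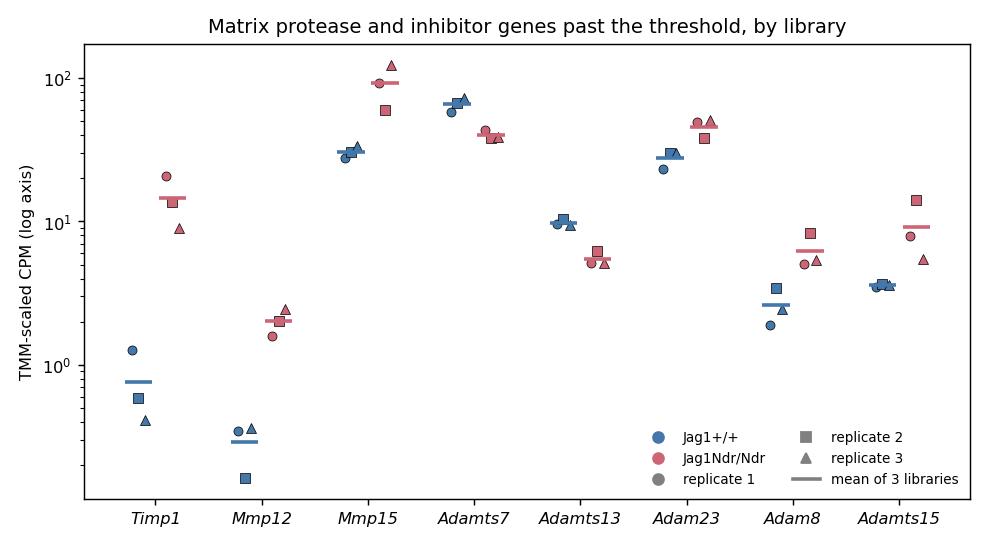
TMM-scaled CPM (log y axis) of the 8 members past the threshold in each of the 6 libraries, coloured by genotype, with lines at the mean of 3 libraries. For each gene the genotypes do not overlap; the gap is widest for Timp1, from at most 1.27 CPM in Jag1+/+ to at least 9.01 CPM in Jag1Ndr/Ndr libraries.

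Among ADAMTS genes, 1 of 14 tested rose and 2 fell (4.73% and 2.90% of all genes tested). Adamts7, which cleaves cartilage oligomeric matrix protein, measured 58.2, 67.1 and 72.6 CPM in Jag1+/+ libraries and 43.3, 38.0 and 39.1 CPM in Jag1Ndr/Ndr libraries. Each Jag1Ndr/Ndr library was lower, by a log2 fold change of -0.72 ± 0.15 (adjusted p = 0.0242). The adjusted p was 0.0574, 0.110 and 0.131 without Jag1+/+ replicates 1, 2 and 3, and 0.0517 and 0.0652 without Jag1Ndr/Ndr replicates 2 and 3. Adamts7 overlaps Tbc1d2b on the opposite strand.

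Adamts13 (chromosome 2, 26973361 to 27009625), which cuts von Willebrand factor and in liver is known from stellate cells, measured 9.55, 10.4 and 9.46 CPM in Jag1+/+ libraries and 5.14, 6.23 and 5.12 CPM in Jag1Ndr/Ndr libraries. The genotypes did not overlap (log2 fold change -0.82 ± 0.19, adjusted p = 0.0354). The adjusted p was 0.108, 0.147 and 0.122 without Jag1+/+ replicates 1, 2 and 3, and 0.0836 without Jag1Ndr/Ndr replicate 3. Per transcript length the level went from 3.02 ± 0.118 to 1.22 ± 0.122 RPKM (SD, n = 3), a larger ratio than in CPM. The transcript length implied by the authors' RPKM differed between genotypes for this entry (means of 3.24 and 4.48 kb). The larger ratio includes that difference. Its substrate Vwf measured 12.3, 14.2 and 12.7 CPM in Jag1+/+ libraries and 37.2, 27.2 and 31.6 CPM in Jag1Ndr/Ndr libraries. Vwf thus rose 2.44-fold (log2 fold change 1.29 ± 0.17, adjusted p = 0.00576) while its protease fell. With limma on the deposited RPKM at pseudocounts of 1 and 0.1 the adjusted p of Vwf was 0.0768 and 0.0735. Endothelial markers, from the cells that make most Vwf, summed to 648 to 735 CPM and 651 to 714 CPM, with 0 of 10 higher or lower. Megakaryocyte and platelet markers summed to 23.8 to 71.1 CPM and 64.9 to 131 CPM, with 0 of 7 called. The stellate marker Reln, which also stands on the list of ADAMTS substrates, fell from 197 ± 9.15 to 113 ± 22.7 CPM (SD, n = 3; log2 fold change -0.80 ± 0.18, adjusted p = 0.0361). It was the only gene called on the stellate cell and fibroblast list, whose median log2 fold change was 0.32. Without a call, Gfap had 1.55 (adjusted p = 0.0528) and Lrat -0.76 (adjusted p = 0.213). The part of stellate cells in the Adamts13 result was not tested.

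Adamts15, a protease of versican and aggrecan, measured 3.47, 3.67 and 3.59 CPM in Jag1+/+ libraries and 7.89, 14.2 and 5.49 CPM in Jag1Ndr/Ndr libraries. The Jag1+/+ libraries were nearly equal and the Jag1Ndr/Ndr libraries spread widely above them (log2 fold change 1.37 ± 0.34, adjusted p = 0.0470). Without Jag1+/+ replicates 1, 2 and 3 the adjusted p was 0.147, 0.147 and 0.154, and without Jag1Ndr/Ndr replicates 1 and 2 it was 0.0578 and 0.0760. Adamts14, a procollagen N-proteinase, measured 4.29, 4.48 and 4.57 CPM in Jag1+/+ libraries and 7.80, 14.1 and 7.04 CPM in Jag1Ndr/Ndr libraries. It showed the same layout of libraries and just missed the threshold (log2 fold change 1.13 ± 0.29, adjusted p = 0.0519). Its relative Adamts2, the main procollagen N-proteinase, had means of 26.4 and 28.5 CPM (log2 fold change 0.12 ± 0.16, adjusted p = 0.735). Adamts1, a versican protease, measured 23.5 to 25.5 CPM in Jag1+/+ libraries and 17.6, 41.5 and 31.1 CPM in Jag1Ndr/Ndr libraries, on both sides of the Jag1+/+ range (log2 fold change 0.33 ± 0.28, adjusted p = 0.560). Adamts10, which binds fibrillin, measured 17.5 to 19.8 CPM and 16.3 to 24.7 CPM (log2 fold change 0.22 ± 0.19, adjusted p = 0.573). The other 7 tested Adamts genes had no call and log2 fold changes from -1.29 (Adamts17, adjusted p = 0.0806) to 0.92 (Adamts12, adjusted p = 0.305).

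The 11 members outside the test were Adam2, Adam3, Adam4, Adam5, Adamts8, Adamts16, Adamts20, Mmp13, Mmp16, Mmp28 and Timp4, with 11 to 58 reads over all libraries. Adamts16 had 16, 21 and 13 reads in Jag1+/+ libraries and 0, 3 and 1 reads in Jag1Ndr/Ndr libraries. It was singled out after its values were seen. It reached the minimum of 10 reads through its Jag1+/+ libraries alone, so its difference is given as these reads. It was outside the main test. Its calls as lower in alternative fits are counted there but are no support for a fall. For Adam3, Adamts20 and Mmp13 the deepest library, Jag1Ndr/Ndr replicate 2, held most of the reads (18 of 21, 11 of 11 and 32 of 47).

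Other genes that act on or with these enzymes were read from 6 lists. Beside the count of each list stand the shares over all genes tested, 4.73% higher and 2.90% lower. In the list of protease activators and the plasmin system 2 of 13 tested genes rose and 0 fell. Plaur, the urokinase receptor, measured 2.55, 2.82 and 2.82 CPM in Jag1+/+ libraries and 7.18, 9.82 and 6.93 CPM in Jag1Ndr/Ndr libraries (log2 fold change 1.55 ± 0.23, adjusted p = 0.00841). Every Jag1Ndr/Ndr library was above every Jag1+/+ library. With limma on the deposited RPKM (pseudocount 1) the adjusted p of Plaur was 0.0617. The median log2 fold change of the list was 0.06.

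Among other inhibitors and modifiers of the matrix 1 of 12 tested rose and 1 fell, with a median of -0.17. The leukocyte elastase inhibitor Slpi went from 3.03 ± 0.455 to 343 ± 109 CPM and the related Wfdc2 from 10.5 ± 1.76 to 1.49 ± 0.499 CPM (SD, n = 3; adjusted p = 0.000221 and 0.003). Both proteins carry the same kind of inhibitor domain; Slpi rose and Wfdc2 fell, with no overlap between genotypes.

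Among partners of ADAM10 and ADAM17, 3 of 14 tested rose and 0 fell, with a median of 0.31. Rhbdf1 and Rhbdf2, the inactive rhomboids that carry ADAM17 to the cell surface, had log2 fold changes of 0.75 ± 0.17 and 0.71 ± 0.16 (adjusted p = 0.0377 and 0.0354). Tspan15, a tetraspanin that binds ADAM10, had 0.86 ± 0.21 (adjusted p = 0.0432). These 3 calls were near the threshold. The adjusted p of Rhbdf1 was 0.123, 0.108 and 0.190 without Jag1+/+ replicates 1, 2 and 3, and 0.0621 when Jag1Ndr/Ndr replicate 3 was left out. That of Rhbdf2 was 0.139, 0.105 and 0.136 when a Jag1+/+ library was left out, and 0.0661 and 0.0795 when Jag1Ndr/Ndr replicate 2 or 3 was. For Tspan15 it was 0.0626 to 0.155 over all 6 libraries left out in turn.

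Among proteins shed by ADAM10 and ADAM17, 3 of 18 tested rose and 0 fell (4.73% and 2.90% of all genes tested), with a median of 0.51. Hbegf, a ligand of the EGF receptor, measured 3.01, 2.40 and 1.99 CPM in Jag1+/+ libraries and 11.0, 10.2 and 4.85 CPM in Jag1Ndr/Ndr libraries (log2 fold change 1.83 ± 0.35, adjusted p = 0.0184). The chemokine Cx3cl1 had a log2 fold change of 1.60 ± 0.33 (adjusted p = 0.0263). Neither gene showed overlap between genotypes. Without Jag1+/+ replicates 1, 2 and 3 the adjusted p of Hbegf was 0.0583, 0.0852 and 0.0853, and that of Cx3cl1 was 0.0686, 0.135 and 0.126 (and just over 0.05 without Jag1Ndr/Ndr replicate 3).

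On the list of ADAMTS substrates and cofactors 1 of 15 tested rose (Vwf) and 1 fell (Reln), with a median of -0.18. The adjusted p of Reln was 0.101, 0.138 and 0.134 without Jag1+/+ replicates 1, 2 and 3, and 0.0547 and 0.0849 without Jag1Ndr/Ndr replicates 1 and 3. Among cysteine cathepsins, lysosomal proteases that can also cut matrix outside cells, 1 of 10 rose, with a median of 0.21. This was Ctsz, which went from 149.7 ± 17.6 to 269 ± 58.8 CPM (SD, n = 3; log2 fold change 0.85 ± 0.21, adjusted p = 0.0454). Its adjusted p was 0.121, 0.161 and 0.211 without Jag1+/+ replicates 1, 2 and 3, and 0.0634 and 0.0713 without Jag1Ndr/Ndr replicates 1 and 2. With sex as a covariate Rhbdf1, Rhbdf2, Tspan15, Cx3cl1, Reln and Ctsz did not pass the test (adjusted p 0.0586 to 0.0952). Cholangiocyte markers had 2 of 8 tested higher, hepatocyte markers 2 of 10 lower, erythroid markers 2 of 5 higher and B cell markers 1 of 7 lower. Over all genes tested the shares were 4.73% higher and 2.90% lower.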

How the data were processed

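Whole read counts per gene entry were deposited by the authors without normalization, 1 column per library. RPKM stand beside them, and per the file headers the authors applied 1 TMM factor to each library. With that factor divided out, RPKM matched reads over library totals, up to a constant per gene, to within 5% for 98.2% of values (8231 genes with at least 100 reads in every library), so the factors had been multiplied in. STAR and mm10 are named in the submitters' processing notes, and the read counter and versions are not given in the sources used here. Libraries were grouped by their labels.

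Of 24489 gene entries, 13819 passed filterByExpr (about 0.401 CPM), and 93 entries for spike-ins and eGFP, 5 reads together, were not used. The main test was the quasi-likelihood test of edgeR 4.0.16 on TMM-scaled counts, 2-sided, adjusted by Benjamini-Hochberg over all genes tested, at 0.05. R 4.3.3, DESeq2 1.42.0 and limma 3.58.1 were also used. A standard error is the fitted log2 change divided by the root of F, and the common biological coefficient of variation was 0.243. CPM are TMM-scaled. Rescaled RPKM are the deposited values divided by the header factor and edgeR's TMM factor. On simulated counts for 13819 genes the test called 27 of 100 genes changed 2-fold, 86 of 100 changed 4-fold and 8 of 13619 unchanged. The simulation gave both genotypes the same spread per gene and held no sex difference. In the data the spread was wider in Jag1Ndr/Ndr for 76.8% of all genes tested, so these rates may not hold for them.

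Members and lists were chosen with earlier results of these data known. Named with values per library were members past the threshold, all Timp genes, the 3 members per other family with the highest deposited RPKM, and the 4 members outside the threshold with the smallest adjusted p, and up to 4 genes past the threshold per list. Of these, 2 list genes are counted but not reported here. Alternatives were DESeq2, library totals, other filters, limma on RPKM, a replicate block, sex as a covariate and leaving out each library. Promoters are RefSeq's, on GRCm38.p6, and exon overlaps are GENCODE's.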

Additional observations from a re-analysis of the deposited data

How the results depend on the processing

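Timp1 and Mmp12 kept their direction and stayed past the threshold under all 15 alternatives (log2 fold change 3.22 to 4.85 with adjusted p up to 0.0208, and 0.54 to 3.06 with adjusted p up to 0.0382; the lowest values are on the log2(RPKM + 1) scale, which understates low genes). In the main fit Mmp12 entered the test through its Jag1Ndr/Ndr libraries alone, and Timp1 needed them too. The alternatives share the same libraries, so they are not separate support. Members called higher, 6 in the main analysis, numbered 10 with DESeq2 (8.23% of all genes tested), 4 with library totals without TMM (4.39%), 3 with limma on deposited RPKM at either pseudocount (1 or 0.1; 2.81% and 3.09%) and 3 with sex as a covariate (2.65%), and 2 to 8 when 1 library was left out. Members called lower, 2 in the main analysis, numbered 4 with DESeq2 (5.45%), 4 among entries with at least 10 reads (2.67%; Adamts16 is among them), 0 with library totals (1.52%), 0 with deposited RPKM (0.731% and 0.847%) and 0 with sex as a covariate (1.66%), and 0 to 4 when 1 library was left out. Of the 15 alternatives, Adamts7 and Adamts15 kept their calls under 5, Adam8 and Adam23 under 6, Adamts13 under 7 and Mmp15 under 13. Some members without a call in the main analysis gained one. Mmp19 was called under 6 alternatives, Adamts14 under 4, Mmp8 and Mmp23 under 3, Mmp2 under 2, and Mmp9 and Mmp25 under 1. The median log2 fold change of all genes moved by 0.13 with library totals and by 0.21 and 0.22 with deposited RPKM. Over the alternatives the genes called higher numbered 1 to 3 on the plasmin list, 0 to 3 among ADAM10 and ADAM17 partners, 0 to 6 among their substrates, 0 to 3 among ADAMTS substrates and 0 to 1 among cathepsins; Slpi and Wfdc2 were called in all 15. The cause of the lost calls was not tested.

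Values near 0 changed sign. The log2 fold change of Timp3 was 0.01 with library totals, 0.09 and 0.08 with deposited RPKM, and -0.30 to 0.04 when 1 library was left out. That of Timp2 was -0.04 to 0.20 with 1 library left out. Adam10 had -0.01 among entries with at least 10 reads, -0.03 with the header factor dividing, -0.12 with sex as a covariate and -0.14 to 0.13 with 1 library left out. Adam9 had -0.03 with sex as a covariate and -0.12 to 0.23 with 1 library left out. Adam17 had 0.04 with library totals, 0.13 with deposited RPKM at both pseudocounts and -0.19 to 0.03 with 1 library left out.

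Replicate numbers are shared by the genotypes. Deviations from the genotype means correlated between same-numbered libraries at 0.086, 0.170 and 0.195 and between others at -0.169 to -0.019. Each library thus correlated best with its own number. Not every pair was over 0.1, but that mark is no test of pairing. The labels state no batch, so the main fit did not take the numbers as pairs, and whether they are pairs was not tested. With a replicate block 9 members were higher and 5 lower (6.10% and 4.25% of all genes tested), and the log2 fold change of Adam10 was -0.02.

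Depth limits the low members: 11 were not tested, and Mmp12 rests on 5 to 14 reads per Jag1+/+ library.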

Other observations

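Adamts13 differed between genotypes in a value that the counts alone do not show. Dividing reads by RPKM gives the transcript length that the authors' table implies for an entry in each library. For Adamts13 this was 3.20, 3.28 and 3.24 kb in Jag1+/+ libraries and 4.52, 4.56 and 4.37 kb in Jag1Ndr/Ndr libraries, a ratio of means of 1.38. Among 10023 entries with at least 50 reads in every library it was the only one with no overlap between genotypes and a ratio at least this large. Of the 36 members with at least 10 reads in every library, 29 varied by at most 5% between libraries. The GENCODE annotation lists Adamts13 transcripts of 3.47 kb and 4.51 kb, which match 2 of the 4 RefSeq transcripts of the entry. It also lists one of 0.603 kb without a RefSeq match. The Jag1+/+ values all lay below 3.47 kb, and the Jag1Ndr/Ndr values lay on both sides of 4.51 kb. The sources used here do not give how the authors set the length, and whether the transcripts used differ between genotypes was not tested.

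Within Jag1Ndr/Ndr, replicate 1 had the lowest CPM for 24 of the 42 tested members (57.1%, against 42.0% of all genes tested) and the highest for 6 (14.3%, against 36.2%). Replicate 2 had the highest for 24 (57.1%, against 35.3%). The spread was wider in Jag1Ndr/Ndr than in Jag1+/+ libraries for 34 members (81.0%), beside 76.8% of all genes tested.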
